A study of Mus musculus with 12 samples.

Results

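The collagen genes of mouse bone progenitors are described here: the genes whose symbol on the array is Col, a type number, the letter a and a chain number. The annotation of the array gave 82 probe sets with such a symbol as their only one, for 42 genes out of 18193 named on the array. Each gene was read from its probe set of highest mean over the 12 arrays, and 15 of the 42 had 1 probe set. Testing needed a signal past the array's median on at least 2 arrays, a condition met by 40 of the 42 and by 12516 genes in all. The basement membrane chain Col4a3 and the beaded filament chain Col6a5 never exceeded it and were not tested. A further 4 passed through 2 arrays each, the smallest number allowed: Col6a4 through both JUN arrays of Thy, and Col4a6, Col7a1 and Col19a1 through 1 array in each of 2 groups. Their differences are given as values, without a test, where those arrays make them.

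Collagens are triple helical proteins of the extracellular matrix, and each molecule is built of 3 chains encoded by 1 or several genes. Types I, III and V form the fibrils of bone, skin and tendon, whereas types II, IX, X and XI mark cartilage. Type IV forms the sheet of basement membranes, and FACITs (collagens with interrupted triple helices) decorate the surface of fibrils. In growing bone, collagen I is the main product of osteoblasts, and collagen X is made by hypertrophic chondrocytes of the growth plate.

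RNA came from cells that were sorted by flow cytometry from limb bones, skull cap, scapula, vertebrae and ribs of JUN inducible mice, in 3 osteoprogenitor populations labelled SSC, CSP and Thy (BCSP and Thy+ in the design text). Each population has 2 arrays labelled JUN, from pups whose mother drank doxycycline and whose cells were sorted after 2 days of induction, and 2 labelled -JUN. All mice are of the inducible kind as far as the labels say. The labels do not give the promoter that drives the transgene, the age of the pups, or whether -JUN litters received doxycycline. The titles give 5 names of mice, and whether 3b is another animal than 3 is not stated. Mouse 3 gave the first -JUN array of each population, mouse 3b the second -JUN array of CSP and Thy, mouse 10 the -JUN SSC array numbered 3, and mice 4 and 7 the first and second JUN arrays of every population. The titles of 3 SSC arrays, those of mice 3, 7 and 10, also carry the same date, and the titles of the first JUN array of SSC and of all CSP and Thy arrays carry none. The labels do not say what the date marks. Since no array outside SSC carries it, several comparisons with SSC are also given with these 3 arrays as a block. In that block they rest on the first JUN array of SSC. Cultures and litters are not given, so p-values measure the spread between these arrays.

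The arrays of Thy carried the marker they are named for: Thy1, a surface glycoprotein, lay at 12.80 to 13.30 (log2 value) in Thy and at 7.28 to 9.63 in SSC and CSP. Jun, the gene to be induced, was not higher in the arrays labelled JUN as a group. In the brighter of its 2 probe sets, the one tested, the log2 value was 12.60 and 12.06 in -JUN SSC and 13.18 and 12.13 in JUN SSC. In CSP it was 13.37 and 13.24 against 12.92 and 12.82, and in Thy 12.81 and 13.65 against 13.03 and 12.90, so that in CSP both JUN arrays lay below both -JUN arrays. In the other probe set both JUN arrays lay below both -JUN arrays in CSP (12.39 and 12.01 against 12.80 and 12.53) and in Thy (11.55 and 11.99 against 12.12 and 12.67), and in SSC the arms overlapped. The labels do not say whether the probes of Jun also read the transgene. No JUN-labelled group differed in Jun past the threshold, with adjusted p between 0.80 and 0.99 (limma), so arms are named here as the labels give them. Across all 12 arrays the median log2 value lay between 7.65 and 7.76. The mean of 27 poly-A control probe sets lay lower in -JUN SSC (8.08 and 8.65) than in the other 10 arrays (9.38 to 11.5). It also did not overlap between SSC (8.08 to 10.54) and Thy (10.63 to 11.5), with CSP at 9.38 to 11.04 overlapping both. Its part in the differences between populations was not tested.

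The main matrix collagens of bone were high in every array, and none passed the threshold between populations. Col1a1 and Col1a2, the chains of collagen I, lay at 14.85 to 15.56 and at 15.35 to 15.66 over the 12 arrays. Col3a1, the chain of collagen III, lay at 14.68 to 15.43, and Col5a1 and Col5a2, which set the diameter of collagen I fibrils, at 14.04 to 14.86 and 14.60 to 15.03. Together with Col6a1, Col6a2 and Col6a3, the chains of the beaded filament, and the FACITs Col12a1 and Col14a1, these are 10 genes whose differences between populations ran from -0.55 to 0.36 on the log2 scale. The 95% intervals of those differences reached from -1.0 to 0.79. Values this close to the top of the scale (the highest deposited value is 15.99) can be compressed, and whether they were was not tested.

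**Figure D1:**
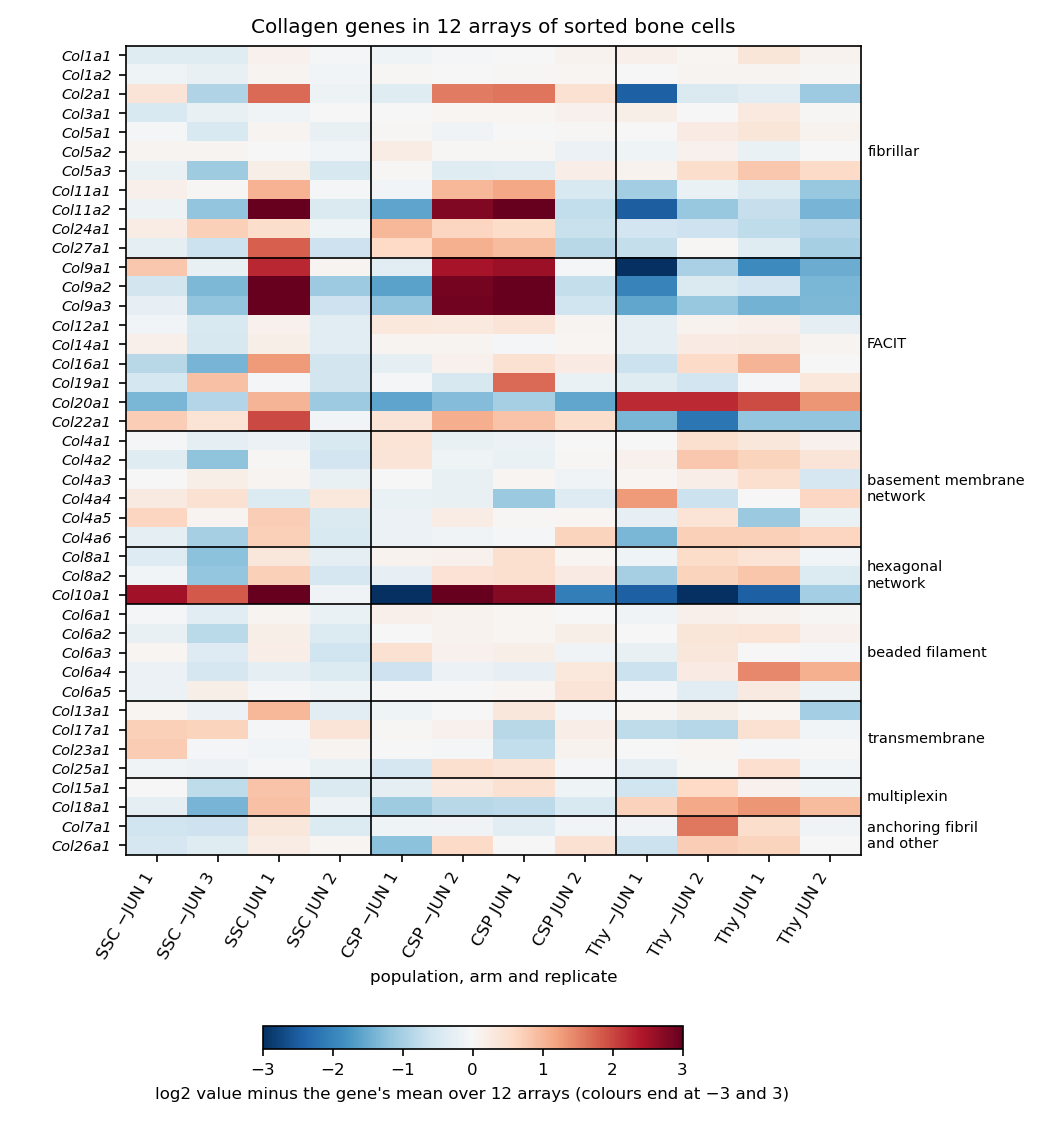
Log2 value of each of the 42 collagen genes (rows, grouped by type) in each of the 12 arrays (columns, grouped by population), minus the mean of that gene over the 12 arrays, with red above and blue below. Col20a1 is red and Col22a1 blue in the 4 Thy arrays, and the cartilage collagens are deepest red in SSC JUN 1, CSP -JUN 2 and CSP JUN 1.

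Between the populations, 3 collagen genes passed the threshold of an adjusted p under 0.05 (Benjamini-Hochberg over the 12516 genes). SSC and Thy differed in 2 of 40 tested collagens, beside 0.391% of all genes tested. CSP and Thy differed in 3 of 40, beside 0.991%. SSC and CSP differed in 0 of 40 by limma, beside 0.431%, and at an unadjusted p under 0.05 in 1 of 40 beside 6.51%. The genes were Col20a1 and Col18a1, which were higher in Thy, and Col22a1, which was lower there.

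Col20a1 encodes the chain of collagen XX, a FACIT found in connective tissue. Its log2 values in Thy were 12.12 and 12.11 in the -JUN arrays and 11.83 and 11.20 in the JUN arrays. In SSC the -JUN arrays gave 8.50 and 9.00 and the JUN arrays 10.89 and 8.79, and in CSP the same order of arms gave 8.29, 8.58, 8.89 and 8.32. All 4 Thy arrays lay above all 8 others, and the first JUN array of SSC came closest. Col20a1 was lower in CSP than in Thy by a log2 difference of -3.29 (SE 0.44, adjusted p = 0.0055), a 9.80-fold difference. It was lower in SSC than in Thy by -2.52 (SE 0.44, adjusted p = 0.038), and by -0.85 (adjusted p = 0.60) with the dated arrays of SSC as a block. All 4 of its probe sets were lower in SSC and in CSP than in Thy with no overlap of arrays, by -1.27 to -2.52 and by -1.32 to -3.29.

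Col18a1 encodes the chain of collagen XVIII, a heparan sulphate proteoglycan of basement membranes whose C-terminal fragment is endostatin. Its log2 values in Thy were 12.40, 12.84, 13.02 and 12.64, and in CSP 10.64, 10.87, 10.92 and 11.24, so that the populations did not overlap. In SSC it lay at 11.42 and 10.30 in the -JUN arrays and at 12.57 and 11.55 in the JUN arrays, and 1 SSC array reached into the range of Thy. The difference between CSP and Thy was -1.81 (SE 0.32, adjusted p = 0.020), a 3.50-fold lower level, and both probe sets showed it without overlap (-1.81 and -1.62). Between SSC and Thy it was -1.26 (SE 0.32, adjusted p = 0.11) and did not pass. With the dated arrays of SSC as a block that difference was -0.34.

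Col22a1 encodes the chain of collagen XXII, a FACIT of tissue junctions such as those of muscle with tendon and of joint cartilage with synovial fluid. In Thy its log2 values were 8.86, 8.06, 9.08 and 9.05. In SSC they were 10.98, 10.64, 12.21 and 10.14, and in CSP 10.61, 11.31, 11.07 and 10.75. Every SSC and CSP array lay above every Thy array. Col22a1 was higher in SSC than in Thy by 2.23 (SE 0.38, adjusted p = 0.038) and in CSP by 2.18 (SE 0.38, adjusted p = 0.019), which are differences of 4.70-fold and 4.52-fold. With the dated arrays as a block the difference for SSC was 3.43 (adjusted p = 0.028). Of its 3 probe sets the used one and a second showed this without overlap (the second by 2.77 and 2.49), and the third did not (-0.11 and 0.12, with overlap).

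**Figure D2:**
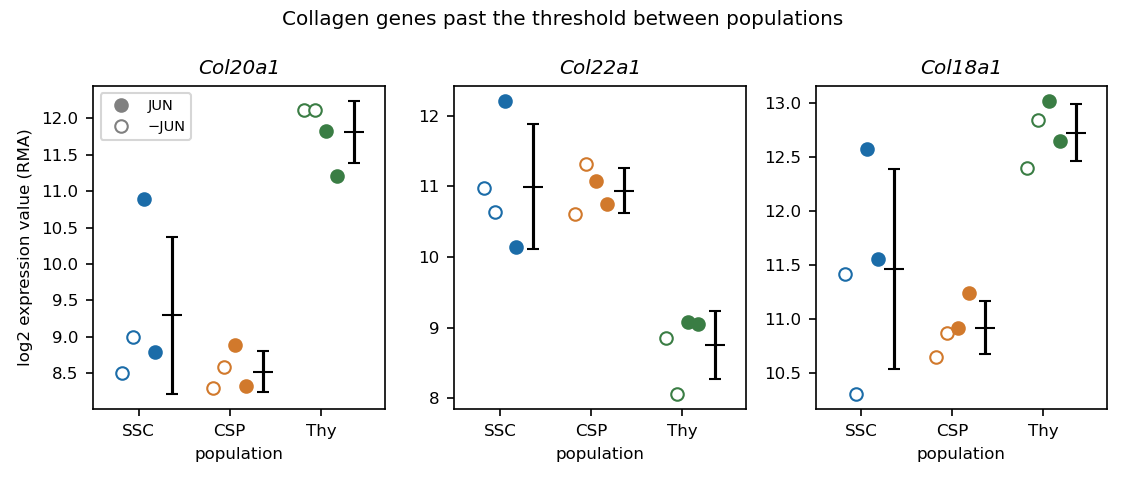
Log2 expression value of Col20a1, Col22a1 and Col18a1 in each array (open circles -JUN, filled circles JUN), by population, with the mean and SD of the 4 arrays of a population beside the points. Col20a1 and Col18a1 are highest in Thy (means 11.81 and 12.72) and Col22a1 is lowest there (mean 8.76), and 1 filled circle, the first JUN array of SSC, stands above the other SSC arrays in all 3 genes.

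Markers of other cell types moved with these genes in some comparisons and not in others. The mean of 6 pericyte and smooth muscle markers, all 6 tested, lay at 11.5 to 12.3 in Thy, 10.5 to 11.0 in SSC and 10.2 to 10.5 in CSP. Its gene Rgs5, a regulator of G protein signalling typical of pericytes, was lower in CSP than in Thy by -2.66 (SE 0.27, adjusted p = 0.0013). Of these 6 markers, 5 had a lower mean and 1 a higher mean in CSP than in Thy, with the same numbers in SSC against Thy. The mean of 6 fibroblast markers lay at 13.0 to 13.3 in Thy and at 11.5 to 12.4 in SSC and CSP. Thy1, for which Thy is named, is 1 of the 6, so part of this gap comes with the sort. All 6 had a lower mean in SSC than in Thy, and 5 had a lower mean in CSP than in Thy. Schwann cell markers, of which Mbp and Sox10 out of 5 were tested, had a mean of 9.81 to 11.9 in Thy, 11.1 to 11.6 in SSC and 7.43 to 8.24 in CSP. Both passed in CSP against Thy, Sox10, a transcription factor of neural crest and glia, at -3.06 (SE 0.35, adjusted p = 0.0027) and Mbp, a myelin protein, at -2.88 (SE 0.52, adjusted p = 0.022). They were thus lower in CSP than in Thy together with Col20a1 and Col18a1, and their mean in SSC lay within the range of Thy. Endothelial markers, 6 of 7 tested, did not follow Col18a1: their mean lay at 7.65 to 8.94 in Thy, 7.44 to 7.88 in SSC and 8.23 to 9.13 in CSP. The part of these cell types in the 3 genes was not tested, and in sorted cells taken in bulk, fewer cells of a type and less RNA per cell cannot be told apart.

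Since arrays of the same mouse exist in several populations, the populations were also compared within mice. With the mouse as a fixed block, 6 collagen genes differed between CSP and Thy, namely Col20a1, Col18a1 and Col22a1 and further Col2a1, Col9a1 and Col11a1, all 3 cartilage chains higher in CSP. Between SSC and Thy, Col20a1 (-2.36) and Col22a1 (2.29) did not pass with that block (adjusted p = 0.11 for both), nor did any other collagen. Single arrays changed the counts. Between SSC and Thy, leaving out 1 array gave 0 to 4 collagens past the threshold, with 0 after leaving out either -JUN array of SSC, either -JUN array of Thy or the first JUN array of Thy. It gave 4 (the same 2 with Col18a1 and Col4a2) without the first JUN array of SSC, which leaves only the dated arrays there. Date and population cannot be told apart in that fit. It gave Col22a1 alone without the second JUN array of SSC, and Col20a1 alone without the second JUN array of Thy. Between CSP and Thy, leaving out 1 array gave 1 to 4, and the 1 was Col20a1 when the first -JUN or first JUN array of CSP or the second -JUN array of Thy was left out. Without mouse 3 the counts for both comparisons fell to 0. With the dated arrays of SSC as a block, a choice made after the data were seen, Col22a1 alone passed between SSC and Thy, the same 3 genes between CSP and Thy, and Col20a1 between SSC and CSP (2.45, adjusted p = 0.046).

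The promoters of the genes higher in Thy are shown for a reader who wants to look for shared elements. They are 150 bases up to the annotated first base, from the RefSeq promoter table of build GRCm38.p6, 5′ to 3′ on the strand of the gene, and capitals mark matches, on either strand, to the AP-1 motif TGANTCA, the SOX motif ACAAAG, the TATA box TATAAA or the GC box GGGCGG. The Col20a1 start at chr2:180986385-180986534 (plus strand) lies inside the span of the gene, downstream of another annotated end. Col18a1 has a pair of starts on the minus strand, an outer one at chr10:77166531-77166680 and an inner one, within the gene, at chr10:77113706-77113855. Col22a1 is named only.
Col20a1: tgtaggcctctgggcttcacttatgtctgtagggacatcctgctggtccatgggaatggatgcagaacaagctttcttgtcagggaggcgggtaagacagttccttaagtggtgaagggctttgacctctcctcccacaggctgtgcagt
Col18a1 outer start: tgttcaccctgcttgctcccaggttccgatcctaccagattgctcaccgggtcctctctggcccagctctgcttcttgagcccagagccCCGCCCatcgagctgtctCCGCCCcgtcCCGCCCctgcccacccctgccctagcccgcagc
Col18a1 inner start: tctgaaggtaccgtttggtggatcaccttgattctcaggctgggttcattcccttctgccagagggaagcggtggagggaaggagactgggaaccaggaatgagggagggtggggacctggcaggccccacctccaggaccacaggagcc
In these 150 bases only the outer Col18a1 start held a match, 3 copies of the GC box, and none held the AP-1 motif. Over 250 bases upstream, the AP-1 motif was in 1 of 36 collagen windows (Col6a1), or 2.8%, and in 6.7% of 32851 windows of all genes. The GC box was in 58.3% of the collagen windows and 32.7% of all, and the TATA box in 13.9% and 12.4%. The absence of these letters from a window says nothing about the factor.

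Next in order were collagens that did not pass. Col24a1, a minor fibrillar chain of bone, lay at 8.14, 8.10, 7.97 and 7.83 in Thy and at 8.94, 9.43, 9.24 and 8.60 in SSC, without overlap. Its difference was 1.04 (SE 0.28, adjusted p = 0.12) for SSC and 1.09 (SE 0.28, adjusted p = 0.12) for CSP, where 1 array, at 8.04, fell within the range of Thy. With the dated arrays of SSC as a block the difference for SSC was 1.51. The adjusted p for CSP was under 0.05 when the second JUN array of CSP (0.016) or mouse 7 (0.034) was left out, and lay between 0.016 and 0.64 over 25 alternatives.

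The basement membrane chains Col4a1 and Col4a2, which form the common type IV molecule, were both lowest in SSC. Their genes lie head to head on chromosome 8, with first bases 21 bases apart, at 11312826 on the minus strand and 11312805 on the plus strand (GRCm38.p6). Col4a2 lay at 13.29, 12.45, 13.70 and 13.08 in SSC and at 13.80, 14.48, 14.33 and 14.06 in Thy, and Col4a1 at 14.50, 14.26, 14.39 and 14.11 against 14.58, 15.03, 14.90 and 14.68. Neither overlapped. The differences were -1.04 (SE 0.27, adjusted p = 0.12) for Col4a2 and -0.48 (SE 0.20, adjusted p = 0.24) for Col4a1. Between CSP and Thy the differences were -0.24 for Col4a1 and -0.48 for Col4a2, whereas 5 of 6 tested endothelial markers were higher in CSP (median 0.57). The endothelial marker mean was lowest in SSC (the ranges are given above), with 5 of these 6 genes lower in SSC than in Thy (median -0.51). None passed the threshold, and the part of these markers in the type IV chains was not tested. With the dated arrays as a block the difference of Col4a2 was -0.47 (adjusted p = 0.82). The other network chains Col4a4, Col4a5 and Col4a6 showed differences between SSC and Thy of both signs, none past the threshold.

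Col5a3, another chain of collagen V, gave -0.90 between SSC and Thy (SE 0.25, adjusted p = 0.13), but its second probe set had the opposite sign (1.02), and averaging both turned the difference to 0.06. Col6a4, a beaded filament chain, lay at 6.60 to 6.93 in SSC and passed the filter only through the JUN arrays of Thy. Of the 40 tested collagens, 15 had an unadjusted p under 0.05 between SSC and Thy, beside 17.7% of all genes, with 7 higher and 8 lower in SSC, and Col6a4 and Col7a1 among the lower ones passed the filter only through Thy arrays. The arrays did not overlap for 9 of 40, beside 7.59%. Between CSP and Thy the numbers were 10 of 40 beside 12% (Col6a4 among them), and 4 of 40 without overlap beside 6.11%. Between SSC and CSP the arrays did not overlap for 1 of 40 (Col3a1, lower in SSC), beside 4.06%.

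**Figure D3:**
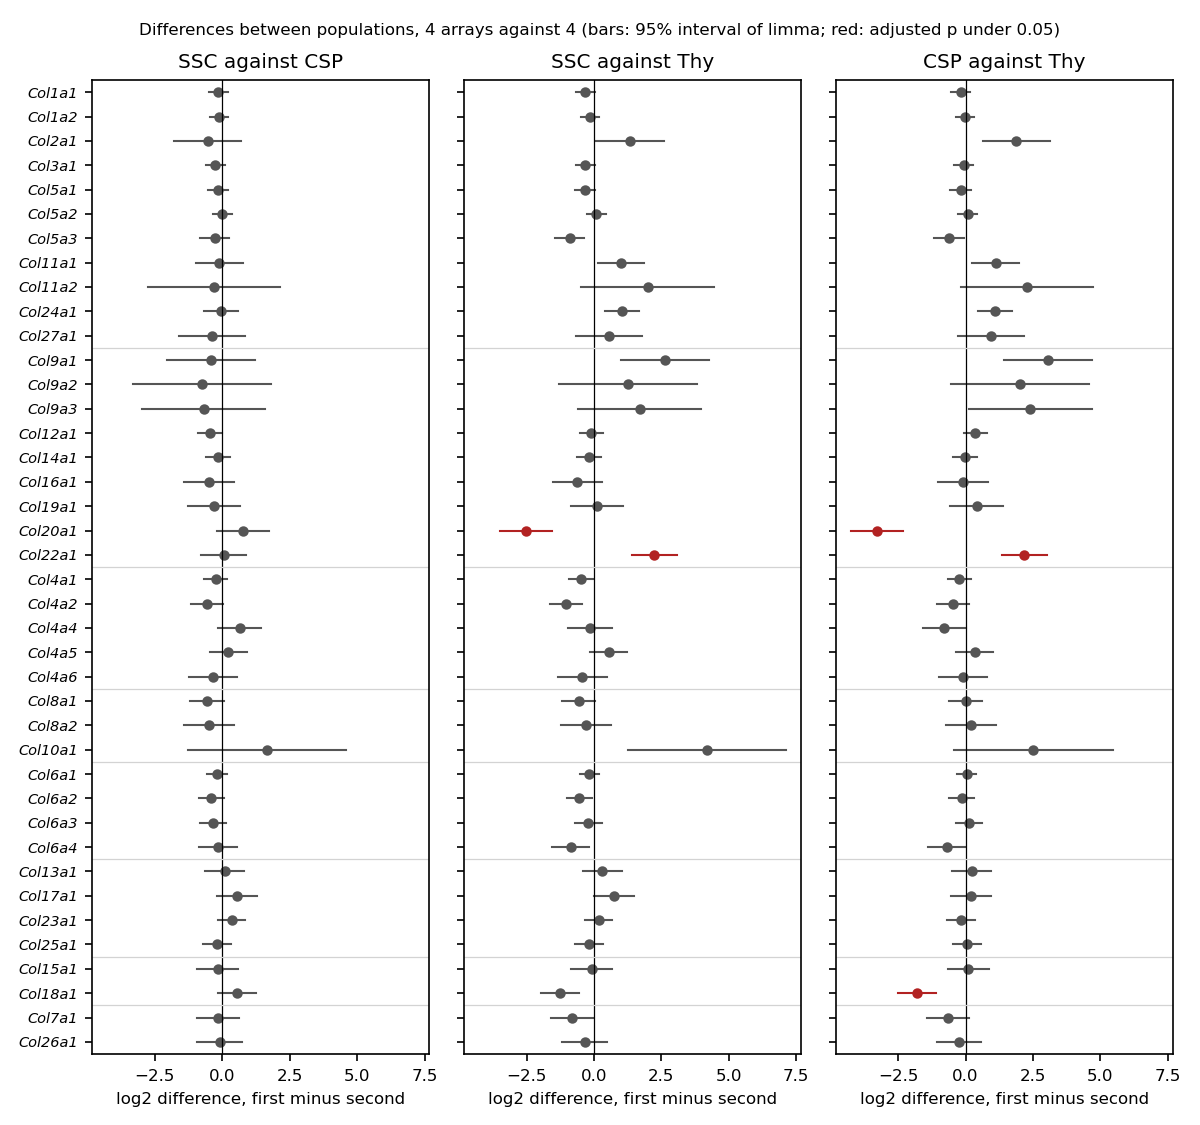
Log2 difference between populations, first minus second, for the 40 tested collagen genes, with the 95% interval of limma as bars and red for an adjusted p under 0.05. Col20a1 and Col22a1 are red on opposite sides of 0 in both comparisons with Thy and Col18a1 in CSP against Thy, whereas the cartilage collagens other than Col11a1 have the widest bars.

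The 8 cartilage collagens varied widely between single arrays, over 2.31 (Col11a1) to 6.73 (Col10a1) log2 units. They were Col2a1, the chain of collagen II, Col9a1, Col9a2 and Col9a3, the FACIT that coats its fibrils, Col11a1 and Col11a2, chains of the collagen XI inside them, Col10a1, the hypertrophic network collagen, and Col27a1, a fibrillar chain of growth plate cartilage. In every one of the 8 the 3 highest arrays were the first JUN array of SSC, the first JUN array of CSP (both mouse 4) and the second -JUN array of CSP (mouse 3b). These 3 arrays were also the top 3 for 232 genes, or 1.85% of the 12516.

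The gap from the third to the fourth array was widest for Col9a2, Col9a3 and Col11a2, at 3.32, 3.15 and 2.92. Col9a2 lay at 13.93, 13.39 and 13.15 in the 3 arrays and at 8.25 to 9.82 in the other 9. Col9a3 lay at 15.00, 14.65 and 14.52 against 10.05 to 11.37, and Col11a2 at 13.90, 12.90 and 12.69 against 7.44 to 9.77. No array stood between the upper and the lower values of these genes. Col2a1 lay at 15.48, 15.38 and 15.33 against 11.33 to 14.22, and Col11a1 at 14.83, 14.95 and 14.79 against 12.64 to 13.95, both already high in the lower arrays. For Col27a1 the gap was 0.35, with the first -JUN array of CSP next at 11.60.

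Chondrocyte markers moved with them. The mean of 12 markers with no collagen among them, such as the proteoglycan Acan, the matrilin Matn1 and the transcription factor Sox9, was 12.4, 12.2 and 12.1 in these 3 arrays and 7.98 to 9.75 in the other 9, and all 12 had the same 3 arrays on top. Collagen differences with this marker mean as a covariate, and without the 3 arrays, are given with the genes they concern. The third array of mouse 4, from Thy, had a marker mean of 8.93, the highest in Thy (7.98 to 8.82 in the others). Its 8 cartilage collagens averaged 10.5, within the range of the other Thy arrays (9.49 to 10.6). The Thy array of mouse 3b came next for the markers (8.82) and was highest in Thy for these collagens (10.6).

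**Figure D4:**
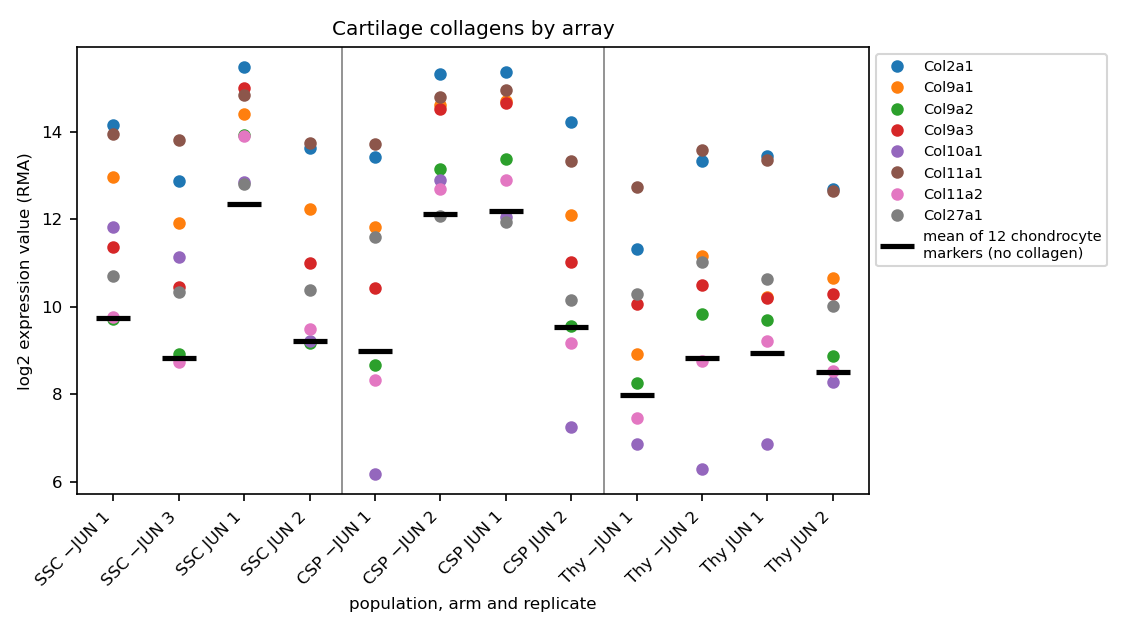
Log2 expression value of the 8 cartilage collagens (coloured points) and the mean of 12 chondrocyte markers (black bars) in each of the 12 arrays. Points and bars rise together in SSC JUN 1, CSP -JUN 2 and CSP JUN 1, where the bars stand at 12.4, 12.1 and 12.2; heights of different genes are not comparable, since each has its own probes.

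All 8 cartilage collagens had a higher mean in SSC and in CSP than in Thy, with medians of 1.52 and 2.15, beside medians of -0.09 and -0.04 over all genes, and none of the 8 passed the threshold. Col9a1 came closest. It lay at 8.93, 11.17, 10.23 and 10.67 in Thy and at 12.96, 11.92, 14.42 and 12.23 in SSC. In this probe set all 8 SSC and CSP arrays lay above all 4 Thy arrays. A second probe set of Col9a1 overlapped in both comparisons, with smaller differences of 1.39 for SSC and 2.33 for CSP. In the used probe set the difference was 2.63 for SSC (SE 0.75, adjusted p = 0.14) and 3.06 for CSP (SE 0.75, adjusted p = 0.097). With the chondrocyte marker mean as a covariate these became 1.36 and 1.21 (adjusted p = 0.097 and 0.20), within ranges over the alternatives of 0.065 to 0.39 for SSC and 0.017 to 0.38 for CSP. With the dated arrays of SSC as a block the difference of Col9a1 for SSC was 4.08, resting on an array of high chondrocyte markers. Col2a1 was higher in CSP than in Thy by 1.89 (SE 0.58, adjusted p = 0.20), and by 0.56 with the covariate.

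Col10a1 did not follow the other 7 in every array. In SSC it lay at 11.82 and 11.14 without JUN and at 12.85 and 9.21 with it, all above the Thy arrays at 6.85, 6.30, 6.86 and 8.28. In CSP it was 12.90 and 12.06 in the arrays with high chondrocyte markers and 6.17 and 7.24 in the other pair, a range of 6.73 over 4 arrays. The -JUN arrays of SSC were thus near the top for Col10a1 while their Col9a2 (9.72 and 8.92) and Col11a2 (9.77 and 8.73) lay among the low ones. The difference of Col10a1 between SSC and Thy was 4.18 (SE 1.35, adjusted p = 0.17). With the dated arrays of SSC as a block it was 5.85, resting on the array at 12.85. The mean of osteoblast markers, 5 of 9 tested, moved with Col10a1. It was 9.95 to 11.3 in SSC and 8.27 to 8.73 in Thy. In CSP it was 10.1 and 10.3 in the pair of arrays with high Col10a1, and 7.30 and 8.08 in the other pair. Single markers did not all follow. Of the 5, 4 were higher and 1 lower in SSC than in Thy, and 3 were higher and 2 lower in CSP than in Thy. Sp7 overlapped between SSC (6.82 to 10.3) and Thy (6.40 to 9.61). Whether these markers bear on Col10a1 was not tested.

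A comparison without the 3 arrays was chosen after they were seen to stand apart. In it SSC (3 arrays) and Thy (4) differed in 4 collagens, Col10a1, Col18a1, Col20a1 and Col22a1, with Col10a1 at 3.65 (adjusted p = 0.040). Those 3 SSC arrays are the dated ones, so date and population cannot be told apart between SSC and Thy. CSP (2 arrays) and Thy differed in Col20a1 alone, at -3.51 (adjusted p = 0.0021), and Col22a1 and Col18a1 stood at 1.92 and -1.78 (adjusted p = 0.075 for both). Over 25 alternatives the adjusted p of Col10a1 in SSC ranged from 0.040 to 0.43, and in CSP that of Col20a1 from 9.4e-05 to 0.11, of Col22a1 from 0.0048 to 0.19 and of Col18a1 from 0.0058 to 0.23. With the marker mean as a covariate, Col18a1, Col20a1 and Col22a1 passed between SSC and Thy, and Col18a1 and Col20a1 between CSP and Thy.

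The promoters of 2 cartilage collagens are shown for the contrast in their elements, again 150 bases on the plus strand in GRCm38.p6. Col10a1 (chr10:34389831-34389980) has a TATA box, whereas Col9a2 (chr4:121039416-121039565) has none and carries 2 GC boxes near its start. Col2a1 and Col9a3 are named only.
Col10a1: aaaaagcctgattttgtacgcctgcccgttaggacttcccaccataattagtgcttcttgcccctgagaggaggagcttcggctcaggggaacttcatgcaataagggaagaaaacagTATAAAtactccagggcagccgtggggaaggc
Col9a2: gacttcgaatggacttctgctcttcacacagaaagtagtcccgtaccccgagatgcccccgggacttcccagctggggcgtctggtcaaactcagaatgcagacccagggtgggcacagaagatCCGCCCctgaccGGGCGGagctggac
The SOX motif was in 3 of the 36 collagen windows of 250 bases (Col10a1, Col20a1 and Col3a1), or 8.3%, and in 16.5% of all windows. Of the cartilage collagens with a window, Col10a1 alone held it.

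The remaining collagens passed in no comparison. Col16a1, a FACIT of skin and cartilage, ranged from 11.20 to 13.86 and was highest in the first JUN array of SSC. Col15a1, the multiplexin related to Col18a1, lay at 11.64 to 13.27 and differed between populations by no more than its SD in any of them. Col8a1 and Col8a2, the short chains of the hexagonal network in vessels and cornea, lay at 10.54 to 12.32 and 10.51 to 12.50, both lowest in the -JUN SSC array of mouse 10. Col7a1, the anchoring fibril chain of skin, lay at 6.63 to 7.78 except for 8.83 in the second -JUN array of Thy. The transmembrane collagens Col13a1, Col17a1, Col23a1 and Col25a1 lay at 6.88 to 9.45. For Col23a1 and Col25a1 a second probe set did not follow the used one, with differences between CSP and Thy of -1.18 and 1.45, so their population differences are uncertain.

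The genes that make, fold and bind collagen showed no call. Of 44 listed genes of synthesis and assembly, 36 were tested, and 0 passed in any comparison of populations or arms (limma). Of all genes tested, 0.431% passed in SSC against CSP, 0.391% in SSC against Thy, 0.991% in CSP against Thy and 0% between arms. With shares this low, a count of 0 in 36 does not set these genes apart. In SSC against CSP all 13 hydroxylases and partners, which modify prolines and lysines of the nascent chains, had a lower mean in SSC, with a median of -0.32 beside -0.05 over all genes. P4ha3, a subunit of prolyl 4-hydroxylase, had the lowest p of them, at -0.70 (SE 0.21, adjusted p = 0.37). Itga1, the collagen-binding integrin chain alpha 1, was at -1.14 in CSP against Thy (SE 0.26, adjusted p = 0.069), with no overlap. Ddr2, a receptor kinase for fibrillar collagen, was at -1.10 in SSC against Thy (SE 0.28, adjusted p = 0.11). Plod2, which hydroxylates lysines of the telopeptides, was at 0.74 and 0.80 in SSC and CSP against Thy (adjusted p = 0.18 and 0.22).

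The second question of the study, what JUN induction does, found no collagen past the threshold: 0 of 40 within each population, with 2 arrays against 2, beside 0% of all genes in each (limma). At an unadjusted p under 0.05 there were 2 of 40 in SSC beside 6.5%, 0 in CSP beside 2.3% and 2 in Thy beside 3.04%. Arrays of the arms did not overlap for 10 of 40 collagens in SSC beside 38.4%, for 10 in CSP beside 31.2% and for 9 in Thy beside 28.6%. The average over populations gave 0 (0%), or 3 at an unadjusted p under 0.05 beside 12.5%. A test of whether the arms differed unequally between populations gave 0 (0%), or 2 at an unadjusted p under 0.05 beside 1.15%. Those were Col17a1 and Col6a4, and Col6a4, also 1 of the 2 in Thy and of the 3 in the average, passed the filter only through the JUN arrays of Thy.

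In SSC the lowest p values were those of Col18a1 and Col16a1. Col18a1 lay at 11.42 and 10.30 without JUN and at 12.57 and 11.55 with it, a difference of 1.20 (SE 0.44, 95% interval 0.22 to 2.19, adjusted p = 0.69). Col16a1 lay at 11.77 and 11.20 without JUN and at 13.86 and 12.04 with it, a difference of 1.47 (SE 0.61, adjusted p = 0.69). The arms did not overlap in either gene. In all, 29 of 40 collagens had a higher mean in JUN SSC, with a median of 0.39 beside 0.08 over all genes, and so did all 13 hydroxylases and partners (median 0.48), none past the threshold. The poly-A control values given above, and the chondrocyte marker mean of 12.4 in 1 of the 2 JUN arrays, moved with this shift, and their part in it was not tested. Without mouse 7, a fit that takes the lone JUN array to vary like the other groups called Col20a1 and Col27a1.

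In Thy, Col6a4 lay at 6.44 and 7.33 without JUN and at 8.54 and 8.15 with it. The latter are its only arrays above the array median, by which it came to be tested, so the difference is given as a description only. Col17a1, the transmembrane collagen of hemidesmosomes, lay at 7.98 and 7.88 against 9.21 and 8.66, a difference of 1.01 (SE 0.37, adjusted p = 0.98). It pointed the other way in SSC, at -0.52 (SE 0.37, adjusted p = 0.69), and the test of unequal differences gave an unadjusted p of 0.028 and an adjusted p of 1.0. In the direction of lower JUN arrays of Thy, Col4a5 was at -0.74 (SE 0.46) and Col13a1 at -0.59 (SE 0.47).

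In CSP no collagen had an unadjusted p under 0.05. Col24a1 lay at 9.71 and 9.36 without JUN and at 9.28 and 8.04 with it, a difference of -0.87 (SE 0.42, adjusted p = 0.99), and Col19a1, a rare FACIT, was high in 1 JUN array at 8.56. For the 10 matrix collagens given first the differences between arms ran from -0.26 to 0.41 in the 3 populations, with 95% intervals from -1.05 to 1.13. Averaged over populations, all 9 FACITs, the 3 chains of collagen IX among them, had a higher mean in the JUN arrays (median 0.39 beside 0.07 over all genes), as 57.1% of all genes did, and none passed. All 12 chondrocyte markers were also higher in that average (median 0.75), none past the threshold, and their part in the FACIT values was not tested. Each mouse lay in 1 arm, so arrays of a mouse are not independent for this average.

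**Figure D5:**
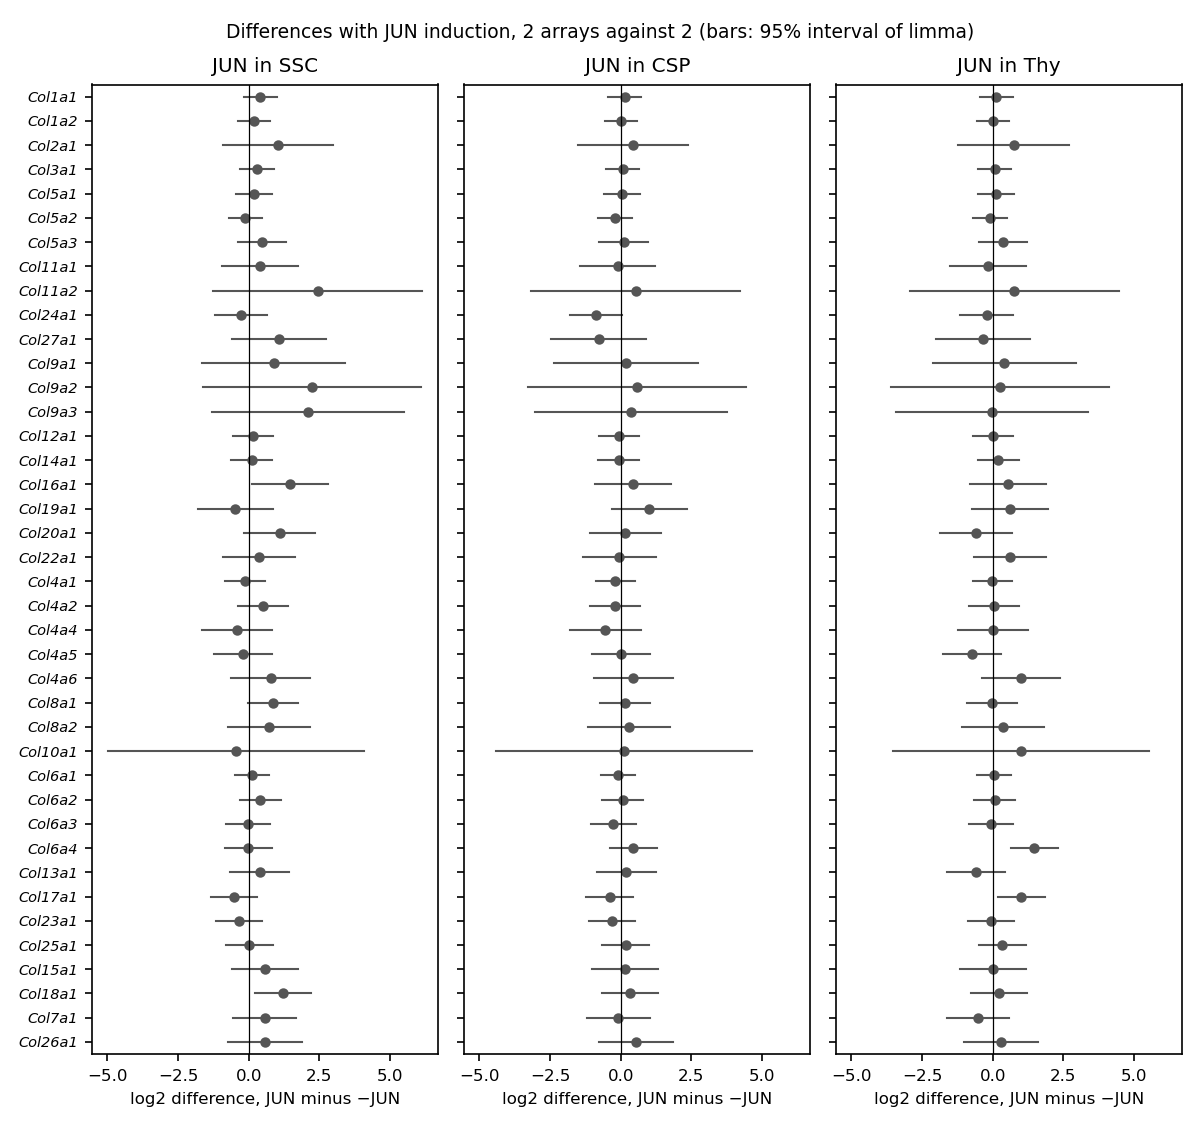
Log2 difference between arms, JUN minus -JUN, for the 40 tested collagen genes in SSC, CSP and Thy, with the 95% interval of limma as bars. Most points lie near 0 and most bars cross it; the bars of Col18a1 and Col16a1 in SSC and of Col6a4 and Col17a1 in Thy do not, none of them passed after adjustment, and Col6a4 was tested only through its 2 JUN arrays of Thy.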

How the data were processed

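Total RNA of 12 sorted samples was measured with 1 microarray each. RMA is the method that the submitters' processing notes name, with no settings, and the values the authors deposited are on its log2 scale, 1 per probe set. RMA gives all arrays a common distribution, so a change of total RNA is not seen. Of 45101 probe sets, 64 controls were left out, and 34945 of the others had 1 gene symbol in the platform annotation, 932 several and 9160 none. The probe set of highest mean stood for a gene, and a probe set was kept when above the array median in at least 2 arrays. Depth does not apply to arrays, and their number limits the precision.

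Tests, all two-sided, used lmFit and eBayes of limma 3.58.1 under R 4.3.3, over all 12516 genes, with Benjamini-Hochberg adjustment and a threshold of 0.05. Populations were compared 4 against 4 in a model of population and arm (8 residual degrees of freedom), and arms 2 against 2 in a model of 6 group means with 6 residual degrees of freedom, which takes the spread of all groups as equal. Errors of differences are standard errors, and intervals are 95% intervals of the fit.

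The members, the lists and the rules were chosen with earlier results of these data known. Any collagen may be named with its values. Tests are given for those past the threshold and up to 4 of lowest p in each direction, fewer for the arms, and for genes of the lists up to 3 in each direction. A few others that the text singles out were chosen after their values were seen. Arrays whose titles give the same mouse were taken as 1 animal, which pairs the populations, and 3b as an animal of its own. The titles of the SSC arrays of mice 3, 7 and 10 carry a date that the other arrays of mice 3 and 7 lack, so this pairing is less sure for SSC. Deviations of same-mouse arrays from their group means correlated at -0.21 to 0.43 across genes, and the mouse as a random block had a consensus correlation of 0.0047 between populations. Alternatives changed the filter, the probe sets, the scaling, the prior variance, the block and the arrays included. Sequences are from the RefSeq promoter table of GRCm38.p6, which matched 33 of the 42 genes with 36 windows.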

Additional observations from a re-analysis of the deposited data

Results flagged for a closer look

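Among 120 sets of 4 arrays (40 collagens in 3 populations), 7 held 1 array whose gap to its nearest neighbour took up most of the range of the set, by Dixon's 95% criterion, and chance alone gives about 1 in 20 sets (5%). In SSC the first JUN array stood high for Col9a2, at 13.9 against 8.92 to 9.72 in the other 3, and for Col27a1, at 12.8 against 10.3 to 10.7. This is also the SSC array with the highest chondrocyte markers. In CSP the first JUN array stood low for Col14a1, at 13.97 against 14.10 to 14.12, and for Col17a1, at 7.92 against 8.78 to 8.95, and the second JUN array stood high for Col4a6, at 7.66 against 6.81 to 6.92. In Thy the first -JUN array stood low for Col4a6, at 5.61 against 7.62 to 7.70, and the second JUN array low for Col13a1, at 6.88 against 7.95 to 8.06. The Col14a1 set spans a small part of a log2 unit. Col4a6 came to be tested only through that second JUN array of CSP and the second -JUN array of Thy. Its sets are counted in the 7 but are given as a description only.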

How the results depend on the processing

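Between SSC and Thy, the count of 2 collagens past the threshold became 0 with no filter on dim probe sets, 0 with the mouse as a fixed replicate block, 0 with only the arrays of both populations in the fit, 0 without mouse 3, 3b or 10, 1 without mouse 7, 1 with the dated arrays of SSC as a block, and 4 without the 3 arrays of high chondrocyte markers. Leaving out single arrays gave 0 to 4. The fits with 4 kept only the dated arrays of SSC, so date and population cannot be told apart in them. Between CSP and Thy, the count of 3 became 6 with the mouse block, 0 without mouse 3, 1 without mouse 3b and 1 without the 3 arrays, and 1 to 4 without single arrays. Between SSC and CSP the count of 0 became 1 with the dated arrays as a block. For JUN in SSC the count of 0 became 2 without mouse 7. The random mouse block, the stricter filter, the mean over probe sets, both rescalings and the intensity trend kept every count within 1.5 times. Col20a1 in CSP against Thy passed in 24 of 25 alternatives, Col22a1 in 17, Col18a1 in 16; in SSC against Thy Col20a1 passed in 11 and Col22a1 in 13. Directions reversed for Col5a3 with the mean over probe sets (0.061 in SSC and 0.33 in CSP against Thy), for Col23a1 under JUN in SSC with that mean (0.37), without mouse 3 (0.067) and over single arrays left out (-0.76 to 0.067), for Col27a1 under JUN in CSP without mouse 7 (0.11) and over single arrays left out (-1.68 to 0.11), for Col19a1 under JUN in CSP without the 3 arrays (-0.15), and in SSC against CSP with the dated arrays as a block for Col17a1 (-0.025), Col4a2 (0.013), Col8a1 (0.072) and Col6a2 (0.048). The cause was not tested, except that the smaller fits have fewer arrays. The number of arrays and the dimness of probe sets such as those of Col4a3 and Col6a5 limit these values.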

Other observations

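The collagen genes lie on the chromosomes in several close pairs, and the members of a pair did not always share a pattern. Col9a1 and Col19a1 are neighbours on chromosome 1, at 24177589 to 24252738 and 24257683 to 24587922 (GRCm38.p6). Col9a1 ranged from 8.93 to 14.70 over the 12 arrays with the cartilage collagens, whereas Col19a1 lay at 6.29 to 8.56 and was highest in 1 of the 3 arrays in which Col9a1 was highest, the first JUN array of CSP. Col3a1 and Col5a2, also on chromosome 1, at 45311538 to 45349706 and 45374331 to 45503282, were both high in every array (14.68 to 15.43 and 14.60 to 15.03). Col6a1 and Col6a2 lie on chromosome 10, at 76708792 to 76726044 and 76595756 to 76623630, and ranged over 0.50 and 1.22 log2 units. The X-linked pair Col4a5 and Col4a6 has first bases 1343 bases apart in opposite directions. Col4a6 was lowest in the first -JUN array of Thy (5.61), where Col4a5 lay at 9.41, within its range of 8.54 to 10.41. Col19a1 and Col4a6 each exceeded the array median in only 2 arrays, so dim values limit what these pairs can show.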
